A study of Mus musculus with 16 samples.

Results

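Cortical neurons that carried mutant huntingtin exon 1 and received Twist1 shRNA 1 were compared with neurons that carried wild-type exon 1, to describe which transcripts remained away from the wild-type level after that knockdown. The comparison used 8 of the 16 libraries of the series, 4 in each group, chosen by the labels of huntingtin length and shRNA. All neurons were primary cortical cells of Swiss Webster mice, isolated at embryonic day 16. On day 5 in vitro every culture received 2 lentiviruses at once, one expressing huntingtin exon 1 and one expressing a short hairpin RNA (shRNA), and total RNA was taken on day 10. The reference group carried exon 1 with 25 glutamines (25Q) and a control shRNA against luciferase. The other group carried exon 1 with 72 glutamines (72Q) and the first of the Twist1 shRNAs, here called shRNA 1. The 72Q neurons with the luciferase shRNA and those with Twist1 shRNA 2, each with 4 libraries, are given beside them where a value turns on them. The model is an exon 1 fragment expressed from a virus in cells that keep their own Htt gene. No 25Q neurons with a Twist1 shRNA are among the groups, so the effect of shRNA 1 in wild-type cells was not measured.

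An expanded glutamine tract in exon 1 of huntingtin causes Huntington disease, in which cortical and striatal neurons lose many transcripts of neuronal identity and signalling. Twist1 is a basic helix-loop-helix transcription factor of the embryonic mesoderm and neural crest that pairs with E proteins, is held back by Id proteins and binds short E-box motifs of the form CANNTG. Repression by Polycomb proteins and DNA methylation normally keeps such developmental regulators off in these cells.

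The promoters of 3 genes on which the comparison turns are shown, each as the 250 bases before the RefSeq gene start (GRCm38.p6), in the direction of transcription, with every CANNTG in capitals. They are Twist1, the target of the shRNA, Pou4f1, the named gene with the largest fitted log2 fold change, and Ssx2ip, a gene that was low with shRNA 1 and much higher in both other 72Q groups.
Twist1: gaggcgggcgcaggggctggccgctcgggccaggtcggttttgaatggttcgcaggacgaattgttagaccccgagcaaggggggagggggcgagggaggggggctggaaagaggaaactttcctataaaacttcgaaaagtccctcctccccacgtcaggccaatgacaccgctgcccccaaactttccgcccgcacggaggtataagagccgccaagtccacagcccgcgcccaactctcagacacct
Pou4f1: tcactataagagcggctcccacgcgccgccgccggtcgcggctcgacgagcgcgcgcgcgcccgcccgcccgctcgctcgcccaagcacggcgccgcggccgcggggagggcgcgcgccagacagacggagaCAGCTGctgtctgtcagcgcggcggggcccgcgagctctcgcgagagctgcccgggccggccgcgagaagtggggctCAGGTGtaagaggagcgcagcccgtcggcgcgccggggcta
Ssx2ip: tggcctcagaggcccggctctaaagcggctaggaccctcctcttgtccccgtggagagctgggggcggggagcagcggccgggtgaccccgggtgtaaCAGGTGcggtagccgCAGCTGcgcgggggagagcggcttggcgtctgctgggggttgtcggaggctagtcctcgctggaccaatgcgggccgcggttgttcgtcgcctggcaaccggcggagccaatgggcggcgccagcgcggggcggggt
The Twist1 stretch (chr12:33957421-33957670, plus strand) held no CANNTG. The Pou4f1 stretch (chr14:104468000-104468249, minus strand) held 2, and that of Ssx2ip (chr3:146404392-146404641, plus strand) held 2. CANNTG reads the same class of motif on both strands and was present in 66% of the 27025 promoters listed, taking 1 start per symbol and the same window. Among genes tested here with a listed promoter it was present in 57% of 11359, so a match describes the letters alone.

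The libraries held 15814525 to 19533034 counts over the 16 libraries. The mitochondrial share of counts was 2.41 to 2.78% in 25Q and 2.39 to 3.26% with shRNA 1, and 20188 to 20426 genes against 20488 to 21306 had at least 1 count. Each of the 4 experiment names in the descriptions has 1 library per group, and values for single libraries follow the order exp107, exp108, exp109a, exp109b. The last pair share an experiment number, were the most alike replicates in both groups and may not be independent of each other. Summed to 1 library per group, they left 8374 genes called between shRNA 1 and 25Q in place of 8671. The labels do not say beyond this whether the replicates came from separate cultures, and p-values cover no more than the spread among the libraries at hand. In bulk RNA of this kind, fewer cells of a type and less RNA per cell cannot be told apart. Levels are CPM (counts scaled to library size) with TMM factors, as mean ± SD (n = 4), and fold changes are log2 values ± SE from edgeR's quasi-likelihood test, with p adjusted by Benjamini-Hochberg over all genes tested. The words rose and fell are kept for an adjusted p under 0.05.

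Twist1 (ENSMUSG00000035799, chr12:33957671-33959817) was still above its 25Q level after knockdown. The 25Q libraries held 0.290, 0.550, 0.245 and 0.0 CPM, and the shRNA 1 libraries 1.82, 1.69, 0.904 and 1.87 CPM. Every shRNA 1 library lay above every 25Q library. The summed counts were 18 and 110, a ratio of 5.71 with an exact 95% interval of 3.45 to 9.99 that covers counting error only. The log2 fold change was 2.11 ± 0.31 (adjusted p = 1.04e-06), compared with 3.47 ± 0.27 for 72Q with the control shRNA against the same 25Q libraries. Directly between the 72Q groups, Twist1 fell by 1.35 ± 0.20 with shRNA 1 (adjusted p = 1.52e-06), and its level did not pass the test between shRNA 1 and shRNA 2, at 1.57 ± 0.452 and 1.64 ± 0.403 CPM (log2 difference -0.07, 95% interval -0.53 to 0.39). Htt itself (ENSMUSG00000029104, chr5:34761740-34912534) had a mean of 276 ± 35.4 CPM in the 25Q group, compared with 253 ± 21.9 CPM with shRNA 1. Its log2 fold change of -0.12 ± 0.05 had an adjusted p of 0.0463, was negative in 3 of 4 experiments and became 0.004 with an adjusted p of 0.958 when libraries were scaled by their totals alone, and whether reads of the transduced exon 1 enter this gene's count is not known.

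Most of the measured transcriptome still differed from 25Q. Of 15103 genes tested, 8671 (57.4%) passed the threshold, with 4237 higher (28.1%) and 4434 lower (29.4%), and the median of all genes was 0.01. At least 2-fold changes were found for 440 genes higher (2.91%) and 529 lower (3.5%). The groups did not overlap in 6051 genes (40.1%). Higher genes made up 48.9% of the calls with TMM scaling, 61.2% with upper-quartile scaling and 66.5% with library totals. These scalings put the median of all genes at 0.093 and 0.133, and library totals moved the median of every list described here upwards. The 72Q control neurons stood at 29.3% higher and 27.8% lower against the same 25Q libraries. Both comparisons share those 25Q libraries, and their values are therefore set side by side, while the difference itself is tested between the 72Q groups, where shRNA 1 raised 22.7% of genes and lowered 23.6% relative to the control. Without the experiment as a block the number called between the 72Q groups was 4561 in place of 6999. Counts of called members in the lists below stand beside the shares for all genes given here.

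**Figure D1:**
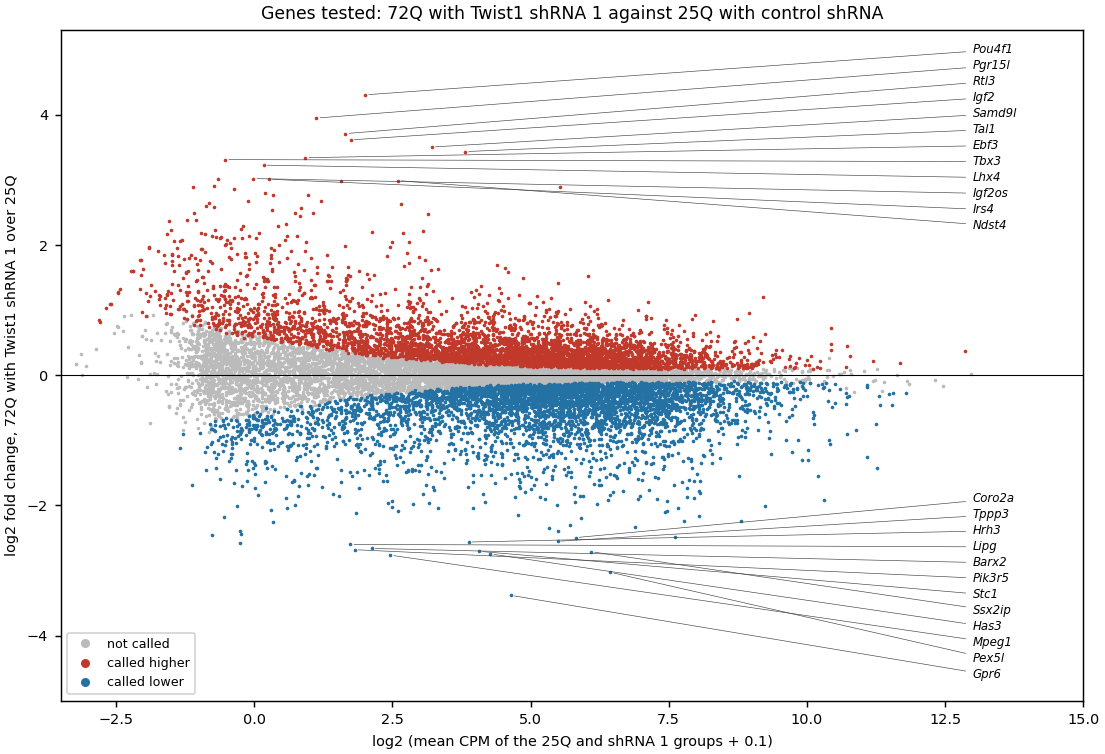
Mean level of the 25Q and shRNA 1 groups (log2 CPM, x axis) against the log2 fold change of shRNA 1 in 72Q over 25Q (y axis), 1 point per gene, with called genes in red (higher) and blue (lower). The 12 highest and 12 lowest named genes are labelled, and the genes with the largest rises sit at low levels while those with the largest falls spread over low and middle levels.

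The genes at least 2-fold higher were low in 25Q neurons, with a median of 0.459 CPM that stood at 1.67 CPM with shRNA 1. Those at least 2-fold lower were well expressed, with medians of 33.2 and 13.1 CPM, beside 21.6 CPM for all genes tested in 25Q. Their median genomic span was 22.5 kb for the higher and 29.6 kb for the lower genes, and 22.7 kb for all. Both sets were chosen by their ratio to 25Q, which by itself favours low 25Q levels among higher genes and high ones among lower genes. Genes with few 25Q counts could also pass the filter through the other groups. The 25Q levels of the sets are therefore descriptions. With at least 1 CPM in 4 libraries, 336 genes in place of 440 were higher and 489 in place of 529 lower.

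Among genes with a mean of at least 1 CPM, the largest fitted log2 fold change was that of Pou4f1 (chr14:104461676-104467999), a POU-domain factor of sensory neurons whose promoter is printed above. It was at 0.463, 0.245, 0.184 and 0.191 CPM in 25Q and at 6.88, 7.26, 7.34 and 8.86 CPM with shRNA 1. The groups were far apart, with a log2 fold change of 4.31 ± 0.19 (adjusted p = 8.20e-18) and a count ratio of 27.6 (exact interval 17.3 to 46.9). The 72Q control neurons held more, 14.2 ± 1.63 CPM, and shRNA 2 neurons more again, 18.5 ± 2.66 CPM, the difference between the Twist1 shRNAs being -1.28 (adjusted p = 7.84e-13). Tal1 (chr4:115056426-115071755), a helix-loop-helix factor of blood formation, was at 2.26, 2.02, 2.64 and 2.16 CPM in 25Q. With shRNA 1 it stood at 25.6, 25.5, 24.0 and 27.7 CPM, a rise of 3.44 ± 0.13. Its libraries within each group were close together, and the difference from shRNA 2 neurons (25.7 ± 2.59 CPM) did not pass the test (95% interval of the log2 difference -0.19 to 0.18, adjusted p = 0.973). The 72Q control neurons held 36.9 ± 7.42 CPM.

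Samd9l (chr6:3372257-3399571), an interferon-inducible gene with antiviral and growth-restricting roles, rose by 3.51 ± 0.12. Its 25Q libraries held 0.985, 1.96, 1.41 and 1.21 CPM and its shRNA 1 libraries 13.3, 22.1, 13.9 and 18.5 CPM. Here shRNA 1 neurons lay above the 72Q control neurons, which had 7.77 ± 2.13 CPM (difference 1.12 ± 0.09, adjusted p = 1.67e-11). Igf2, an embryonic growth factor, rose by 3.62 ± 0.19, from 0.395 ± 0.0724 to 6.14 ± 1.47 CPM, and Igf2os, its antisense partner, by 3.02 ± 0.31. With the strand setting of the counting unknown, reads of this pair cannot be told apart. The other highest genes were Pgr15l at 3.95, Rtl3, a retrotransposon-derived gene, at 3.71, the transcription factors Ebf3 at 3.34, Tbx3 at 3.31 and Lhx4 at 3.23, the insulin receptor substrate Irs4 at 3.01 and the heparan sulfate enzyme Ndst4 at 2.99. Tbx3 rests on 1 count in the 25Q libraries against 81, a ratio of 75.7 with an interval of 13.2 to 3025, and its fitted fold change depends on the prior count.

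The lowest fitted log2 fold change among these was that of Gpr6 (chr10:41069989-41072285), a constitutively active G protein-coupled receptor known from striatal projection neurons. It was at 46.4, 54.7, 44.0 and 36.5 CPM in 25Q and at 5.88, 3.22, 5.71 and 2.62 CPM with shRNA 1. All shRNA 1 libraries lay far below the lowest 25Q library, a change of -3.38 ± 0.23 (adjusted p = 2.03e-07). The 72Q control had 2.25 ± 1.07 CPM, and shRNA 1 differed from it by 0.91 (95% interval 0.13 to 1.69, adjusted p = 0.0549). Pex5l, an auxiliary subunit of HCN pacemaker channels, fell by 3.03 ± 0.14, from 154 ± 6.26 to 19.2 ± 4.10 CPM. Hrh3, the presynaptic histamine H3 receptor, fell by 2.56 ± 0.12, from 25 ± 3.24 to 4.24 ± 1.56 CPM. Next to them were Mpeg1, a perforin-like gene of macrophages, at -2.76, the hyaluronan synthase Has3 at -2.75, Ssx2ip, a centriolar satellite protein, at -2.71, the secreted glycoprotein Stc1 at -2.71, the phosphoinositide 3-kinase subunit Pik3r5 at -2.68, the homeobox factor Barx2 at -2.66, the lipase Lipg at -2.60, the tubulin-binding Tppp3 at -2.55 and the coronin Coro2a at -2.49. The groups did not overlap in any of the 12 highest and 12 lowest genes, which were chosen by this same comparison.

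**Figure D2:**
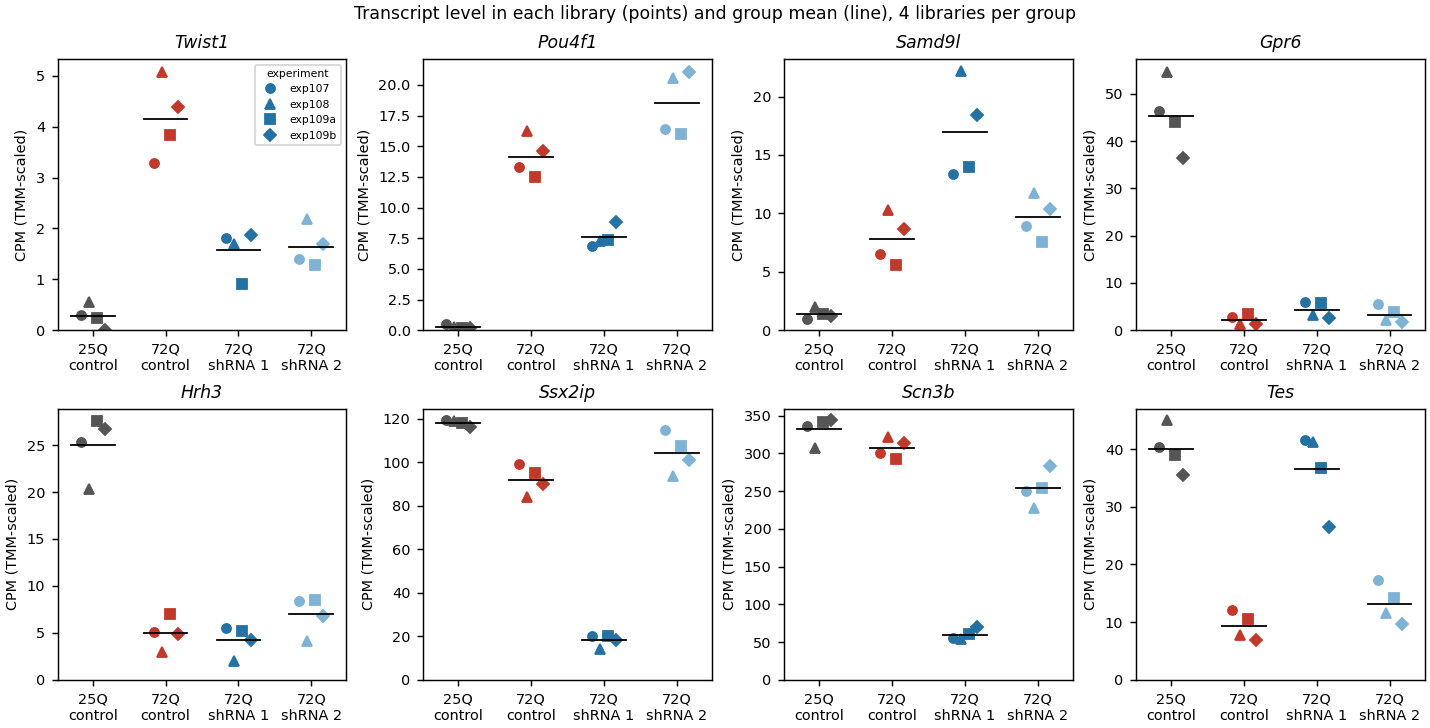
CPM (y axis, linear from 0) of 8 genes in each library of the 4 groups (x axis), with the marker giving the experiment and the line the group mean. Twist1 and Pou4f1 with shRNA 1 lie between the 25Q and 72Q control levels, Gpr6 and Hrh3 are far below 25Q with shRNA 1 and in the 72Q control, Ssx2ip and Scn3b are low with shRNA 1 alone, and Tes is near its 25Q level with shRNA 1.

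Developmental transcription factors formed the list with the largest median shift among the members tested. The lists were chosen with earlier results of these data known, so this rank is a description. Of 96 listed factors, 75 had a higher summed level with shRNA 1 than in 25Q, 8 had a lower one and 13 had no count in either group. The share of all genes with a higher level was not counted. Some of these differences rest on 1 or 2 counts, such as Hoxb5 and Hoxc6 at 0 in 25Q against 1 and Hoxc9 at 0 against 2. The filter on low counts left 66, of which 43 rose and 4 fell, beside 28.1% higher and 29.4% lower over all genes. Of these 66, 13 had no count in 25Q and 14 had 1 to 3, so they entered the test through the 72Q groups, where they are high, and the counts of calls describe only the factors that passed. Their median log2 fold change was 1.21, or 1.34 with genes at 0 counts in 25Q set to their lower bound against a floor of 3 counts over the group, and 2.35 in the 72Q control neurons. Summed over the list, 25Q libraries held 53.2 to 55.1 CPM, shRNA 1 libraries 105 to 120 CPM and 72Q control libraries 166 to 200 CPM. These ranges do not touch. A large part of the gain over 25Q lies in Tal1, at 2.27 CPM in 25Q and 25.7 CPM with shRNA 1, and in Pou4f1, at 0.271 and 7.6 CPM. Between the 72Q groups 47 of the factors fell with shRNA 1 and none rose, beside 23.6% lower and 22.7% higher over all genes. Against shRNA 2, 57 were lower and 3 higher with shRNA 1, beside 25.9% lower and 27.3% higher over all genes.

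Factors that lay well below the 72Q control and still above 25Q included the HOX genes Hoxc13 and Hoxd8, the T-box factor Tbx20, the homeobox gene Shox2 and the forkhead gene Foxd1, all of which pattern the trunk, heart, limbs or kidney. Hoxc13 was at 0.174, 0.0, 0.0 and 0.0 CPM in 25Q and at 0.588, 0.716, 0.396 and 0.499 CPM with shRNA 1, compared with 3.05 ± 0.981 CPM in the 72Q control and 5.71 ± 0.678 CPM with shRNA 2. The shRNA 1 libraries remained above every 25Q library, with a count ratio of 12.2 (interval 3.86 to 61.4), and lay below both other 72Q groups. Tbx20 had no count in 25Q and 19 counts with shRNA 1, at least 5.92-fold higher against the floor of 3 counts over the group. Foxd1 had 2 and 49 counts, a ratio of 22.9 (interval 6.01 to 194). The sensory factor Pou4f1 and the blood factor Tal1 also fell against the 72Q control, by 0.89 and 0.51 (adjusted p = 4.39e-09 and 2.59e-05), and stood at 4.31 and 3.44 against 25Q, beside 5.20 and 3.95 in the control. The homeobox gene Barx2 fell in both comparisons, by 2.66 with shRNA 1 and by 1.63 in the control.

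**Figure D3:**
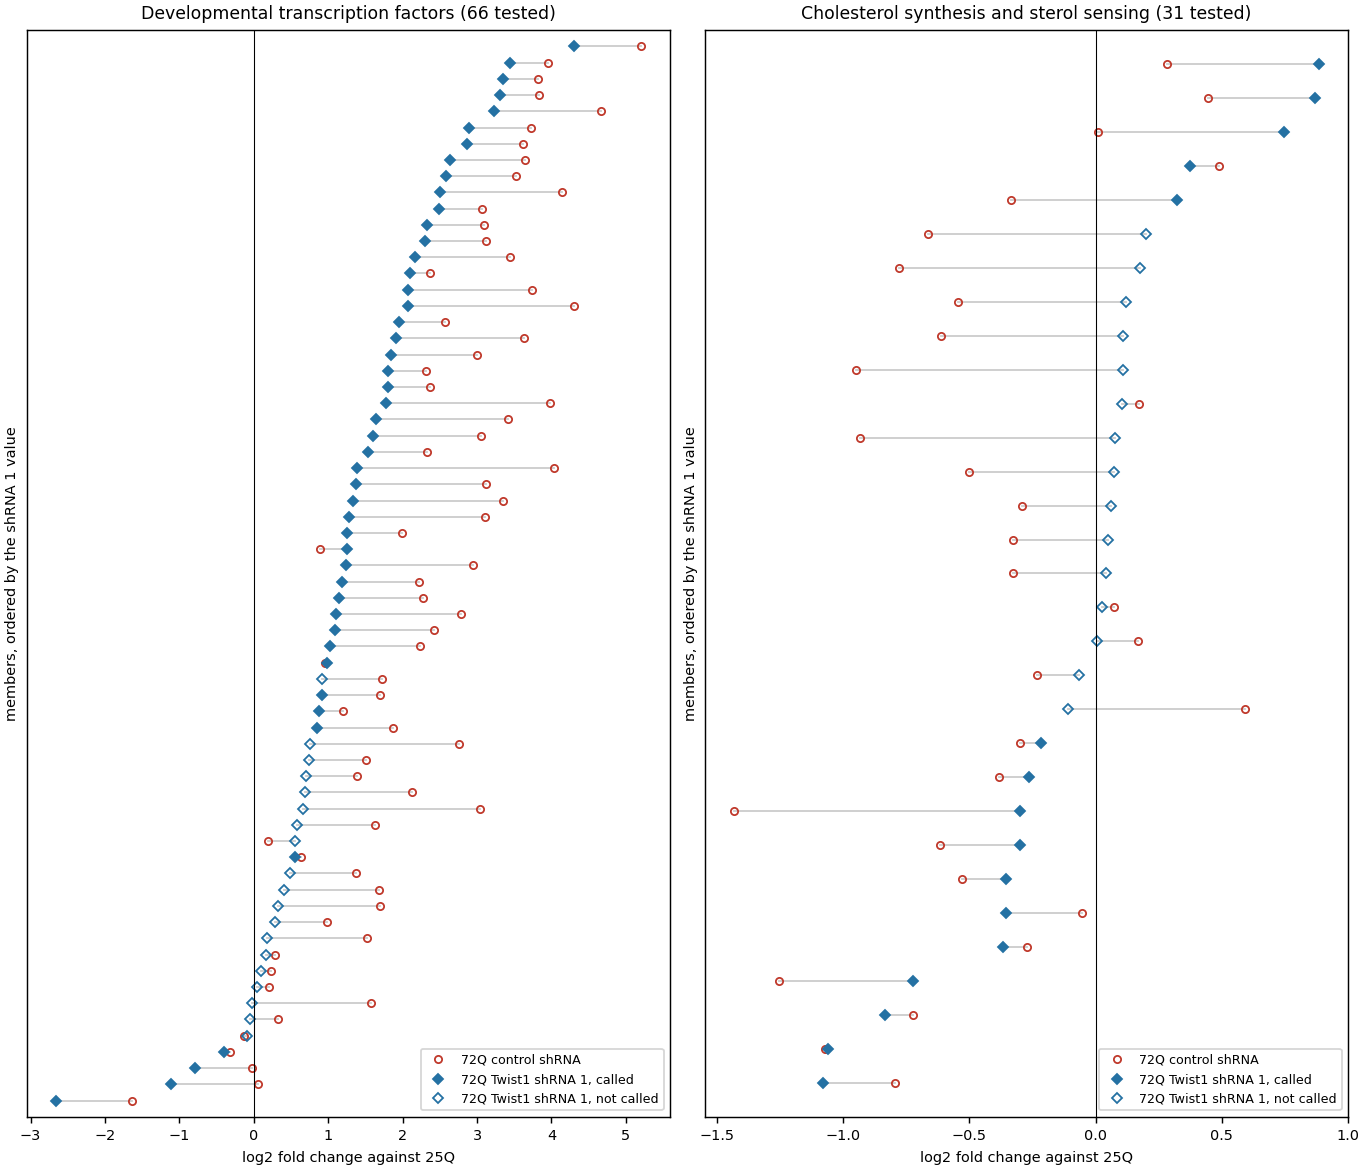
Log2 fold change against 25Q (x axis) of each tested member of 2 lists, ordered by the shRNA 1 value, with open circles for 72Q with control shRNA and diamonds for 72Q with shRNA 1, filled where called. Of the 66 developmental factors, 43 are filled on the higher side, and the median of the 31 sterol genes lies at 0.04 for the diamonds and at -0.33 for the circles.

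Transcription factors of cortical projection neurons were the list with the largest share of members lower, where all genes had 29.4% lower and 28.1% higher. Of 40 tested, 31 fell and 3 rose, with a median of -0.74, and in the 72Q control 32 fell and 4 rose with a median of -0.67. Zbtb18 (chr1:177444661-177450760), a repressor needed for cortical neuron maturation, was at 773, 742, 731 and 687 CPM in 25Q and at 171, 137, 169 and 148 CPM with shRNA 1. The groups were widely separated, with a change of -2.23 ± 0.06 (adjusted p = 1.97e-19), and shRNA 1 neurons were below the 72Q control neurons at 219 CPM (difference -0.48, adjusted p = 5.33e-07). Bhlhe22, which guides the areal identity of upper layers, fell by 1.90 ± 0.12, from 194 ± 16.2 to 52.9 ± 9.66 CPM. Foxp2, a deep-layer factor, went the other way and rose by 1.68 ± 0.13, from 3.02 ± 0.789 to 9.90 ± 0.656 CPM, above the 4.36 CPM of the control (difference 1.16, adjusted p = 4.86e-09). Nfib, a nuclear factor I gene, rose by 0.55 ± 0.05. Named after its values were seen, the subcortical projection factor Fezf2 stood at 32.8 ± 5.12 CPM in 25Q and 14.9 ± 2.19 CPM with shRNA 1. Its difference from the 72Q control did not pass the test (-0.02, adjusted p = 0.887). Mef2c, an activity-dependent factor chosen in the same way, fell by 0.99 ± 0.06 and was above the 72Q control by 0.64 (adjusted p = 1.06e-10). Between the 72Q groups 10 of the 40 were higher and 8 lower with shRNA 1, beside 22.7% higher and 23.6% lower over all genes.

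Genes of neuronal signalling were mostly lower than in 25Q but by less than in the 72Q control. Over all genes, 29.4% fell and 28.1% rose against 25Q, and 22.7% rose and 23.6% fell between the 72Q groups. Of 43 glutamatergic synapse genes, 26 fell and 6 rose with a median of -0.15, compared with 33 lower, 4 higher and -0.45 in the control, and 23 of them rose and 8 fell between the 72Q groups. With library totals 20 fell and 8 rose against 25Q, and the median was -0.02. Grm2, a presynaptic metabotropic receptor, fell by 1.71 ± 0.17, from 85.0 ± 6.18 to 26.2 ± 5.09 CPM, and Dlg2, a postsynaptic scaffold, by 1.27 ± 0.06, from 488 ± 16.1 to 204 ± 25.7 CPM. Gria4, an AMPA receptor subunit, rose by 0.26 ± 0.05. Camk2b and Gria2 were picked for their levels after the values were seen. Camk2b, a calcium-dependent kinase subunit, was at 1268, 1254, 1194 and 1164 CPM in 25Q and at 698, 570, 656 and 547 CPM with shRNA 1, with no overlap, and lay above the control by 0.50 (adjusted p = 0.00150). Gria2, the subunit that limits calcium entry through AMPA receptors, fell by 0.94 ± 0.05 and differed from the control by 0.06 (adjusted p = 0.324).

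Of 48 voltage-gated channel genes, 28 fell and 7 rose with a median of -0.28, beside -0.54 in the control, and 27 rose and 11 fell between the 72Q groups. All genes had 29.4% lower and 28.1% higher against 25Q, and 22.7% higher and 23.6% lower between the 72Q groups. Cacna1i, a low-threshold calcium channel, fell by 1.5 ± 0.07, from 192 ± 31.2 to 68.1 ± 12.4 CPM. Cacnb4, a calcium channel beta subunit, was at 46.4, 53.9, 49.7 and 50.6 CPM in 25Q, at 76.5, 80.4, 83.4 and 71.5 CPM with shRNA 1 and at 36.9 CPM in the 72Q control. It thus crossed from below to above the 25Q level, with a log2 fold change of 0.64 ± 0.06 in one comparison and -0.44 in the other, and Cacng3 did the same at 0.60 and -0.43. Genes of inhibitory neurons and their receptors had 21 of 37 lower and 7 higher (median -0.26), and with library totals 17 lower and 11 higher (median -0.13). Gad1, which makes GABA, fell by 1.27 ± 0.09, and Glra3, a glycine receptor subunit, rose by 2.22 ± 0.16, from 2.83 ± 0.635 to 13.7 ± 3.26 CPM. Of 46 axon guidance genes, 26 fell and 9 rose with a median of -0.24, where the control had 35 lower and none higher, and with library totals 22 fell and 16 rose. Plxna2, a semaphorin co-receptor, fell by 1.52 ± 0.09, and Epha7, an ephrin receptor, rose by 0.59 ± 0.06. Pan-neuronal genes had 19 of 32 lower and 8 higher, led by Rbfox3 at -0.91 and Tubb3 at -0.90, but with library totals 13 were higher and 13 lower.

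Receptors and peptides showed the same direction, where all genes had 29.4% lower and 28.1% higher. Genes of striatal-type dopamine signalling, which cortical neurons also express in part, had 21 of 35 lower and 9 higher with a median of -0.44 and a control value of -0.56. Rgs4, which shortens G protein signals, was at 277, 296, 264 and 281 CPM in 25Q and at 97.1, 62.3, 80.6 and 63.0 CPM with shRNA 1. All shRNA 1 libraries were below the lowest 25Q library, a change of -1.93 ± 0.20 (adjusted p = 1.66e-05), and above the control by 0.73 (adjusted p = 0.0186). G protein-coupled receptors for serotonin and peptides had 18 of 37 lower and 8 higher with a median of -0.29. With library totals 15 were lower and 11 higher (median -0.16). The somatostatin receptors Sstr1 and Sstr2 fell by 1.88 ± 0.09 and 1.94 ± 0.13, with differences from the 72Q control of 0.02 (adjusted p = 0.877) and -0.01 (adjusted p = 0.953). The opioid receptor Oprm1 rose by 1.55 ± 0.20, from 1.56 ± 0.810 to 4.73 ± 1.62 CPM.

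Among 12 neurotrophins and receptors 8 fell and 1 rose, with a median of -0.39 and a control value of -0.43. Ntf3, a growth factor for proprioceptive and cortical neurons, was at 3.96 ± 1.16 CPM in 25Q, 1.90 ± 0.448 CPM with shRNA 1 and 0.717 CPM in the control. Bdnf, the neurotrophin most studied in Huntington disease and named here for that, held 10.7, 10.7, 11.3 and 9.72 CPM in 25Q and 11.8, 8.54, 9.43 and 9.79 CPM with shRNA 1. These overlapped, with a log2 fold change of -0.11 (95% interval -0.34 to 0.13, adjusted p = 0.440) that became 0.02 with library totals, while shRNA 1 exceeded the control by 0.38 (adjusted p = 0.00961). Activity-regulated genes had 23 of 48 lower and 11 higher (median -0.17, control -0.32), and 21 lower and 15 higher with library totals (median -0.05). All genes had 29.4% lower and 28.1% higher with TMM scaling. Inhba, an activin subunit induced by synaptic activity, fell by 1.62 ± 0.18 and Nr4a3 by 1.43 ± 0.14, while Ier3 rose by 1.41 ± 0.10.

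**Figure D4:**
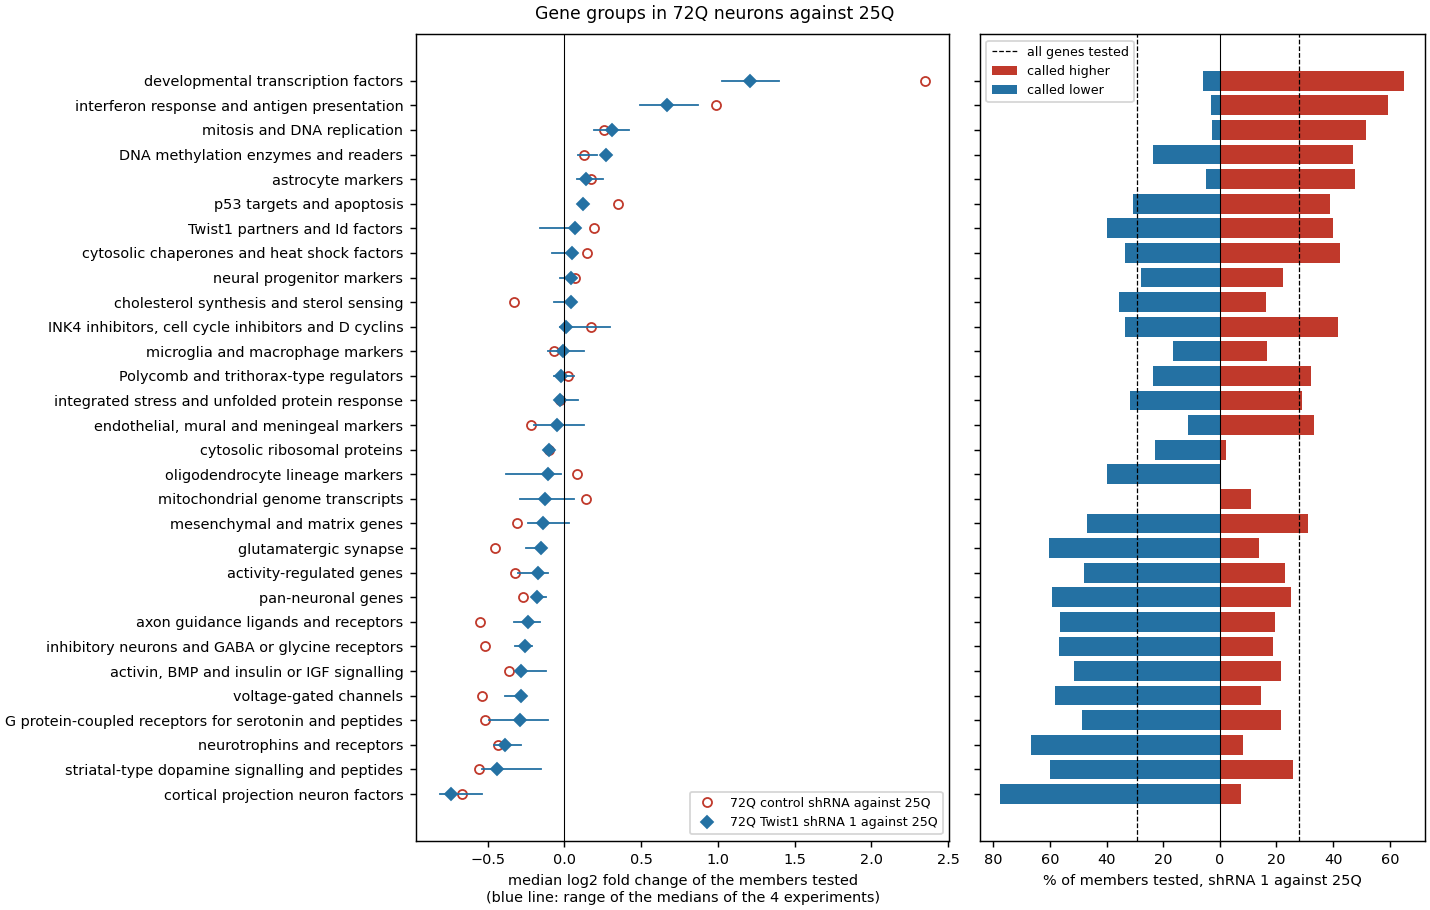
Left, median log2 fold change against 25Q of the tested members of each gene list (x axis), with diamonds for 72Q with shRNA 1, lines for the range of medians over the 4 experiments and circles for 72Q with control shRNA. Right, percent of tested members called higher (right of 0) or lower (left of 0) with shRNA 1, where dashed lines mark 28.1 and 29.4% for all genes. The cortical projection factors exceed these most on the lower side. The developmental factors have the longest bar on the higher side, but it counts only the 66 of 96 that passed the filter. Of these, 13 had no count in 25Q and 14 had 1 to 3, so the bar is not a ranking of the lists.

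Of 31 cholesterol synthesis and sterol sensing genes tested, 11 fell, 5 rose and 15 did not pass the test, with a median of 0.04, beside 29.4% lower and 28.1% higher over all genes. In the 72Q control 22 fell and 6 rose with a median of -0.33, and between the 72Q groups 18 rose and 4 fell. Over all genes these shares were 27.8% lower and 29.3% higher, and 22.7% higher and 23.6% lower. With library totals 14 rose and 6 fell against 25Q. Hmgcs1, which makes the precursor of mevalonate, was at 1956, 1723, 1834 and 1866 CPM in 25Q and at 1012, 809, 903 and 834 CPM with shRNA 1. The groups were well separated at -1.06 ± 0.11 (adjusted p = 7.63e-06), and the difference from the control was 0.01 (adjusted p = 0.951). Nsdhl, a demethylation enzyme further down the pathway, named after its values were seen, held 163, 169, 164 and 167 CPM in 25Q, 197, 171, 189 and 160 CPM with shRNA 1 and 87.1 CPM in the control. It overlapped with 25Q at 0.11 ± 0.09 (adjusted p = 0.334, or 0.0411 with library totals and 0.0457 in a fit of the 8 libraries alone) and exceeded the control by 1.05 (adjusted p = 4.18e-07). Lss, which closes the sterol rings, rose by 0.87 ± 0.08, from 172 ± 1.69 to 313 ± 7.40 CPM, and Hsd17b7 by 0.89 ± 0.09.

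Interferon response and antigen presentation genes were mostly higher, where 28.1% of all genes rose and 29.4% fell. Of 48 listed, 35 had a higher summed level than in 25Q, 11 a lower one and 2 no count, a share that was not counted over all genes. Among the 32 that passed the filter 19 rose and 1 fell, with a median of 0.67 against 0.99 in the control, where 24 rose and 3 fell. Most of these genes are near the floor, and the list includes Trim25, a ubiquitin ligase of RNA sensing, which rose by 1.85 ± 0.21, from 0.977 ± 0.230 to 3.80 ± 1.10 CPM. Tap1, a peptide transporter for antigen presentation named after its values were seen, held 8.28, 6.30, 11.8 and 11.8 CPM in 25Q and 15.4, 17.2, 17.6 and 25.8 CPM with shRNA 1. The groups did not overlap, and shRNA 1 neurons were below the control neurons by 0.91 (adjusted p = 1.75e-07).

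Among cell cycle inhibitors, Cdkn2a, the INK4a and ARF locus that is normally silenced by Polycomb, was at 0.058, 0.734, 0.368 and 0.445 CPM in 25Q and at 2.12, 2.71, 3.28 and 2.87 CPM with shRNA 1. Every shRNA 1 library exceeded every 25Q library, a rise of 2.49 ± 0.24, and the 72Q control stood higher at 4.81 CPM. Its neighbour Cdkn2b, named after its values were seen, was at 2.00 ± 0.795 CPM in 25Q, 2.05 ± 0.310 CPM with shRNA 1 and 4.36 CPM in the control, so that it did not pass the test against 25Q (0.02 ± 0.21, adjusted p = 0.939, with a sign that changed on leaving out single libraries) and fell by 1.06 against the control. Cdkn1a, a p53-induced inhibitor, rose by 0.54 ± 0.11. Of 36 p53 target and apoptosis genes 14 rose and 11 fell (median 0.12, control 0.35), which became 21 higher and 8 lower with library totals (median 0.24), and 20 fell and 6 rose between the 72Q groups. Over all genes 28.1% rose and 29.4% fell against 25Q, and 23.6% fell and 22.7% rose between the 72Q groups. Hrk, a pro-apoptotic BH3 gene, fell by 1.26 ± 0.07. Of 35 mitosis and DNA replication genes 18 rose and 1 fell with a median of 0.31, which rose to 0.43 with library totals, and Tpx2, a spindle factor, rose by 0.64 ± 0.08, from 13.4 ± 0.609 to 21.1 ± 2.37 CPM.

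Polycomb and trithorax-type regulators had 11 of 34 higher and 8 lower, beside 28.1% higher and 29.4% lower over all genes. Their median of -0.02 turned to 0.11 with library totals. Scmh1, a Polycomb repressive complex gene, fell by 1.26 ± 0.07 and by 0.26 in the control, and Bmi1 rose by 0.46 ± 0.06. Among 17 DNA methylation genes 8 rose and 4 fell, with the dioxygenase Tet3 at -0.65 ± 0.05. Of 10 tested Twist1 partners and Id factors 4 rose and 4 fell, among which the inhibitors Id3 and Id1 rose by 1.69 ± 0.12 and 1.12 ± 0.15 and Id2 fell by 0.74 ± 0.08. Id3 held 9.73, 15.1, 8.22 and 6.35 CPM in 25Q and 31.2, 38.4, 33.6 and 23.7 CPM with shRNA 1. The groups did not overlap, and shRNA 1 also lay above the 72Q control at 13.5 CPM and shRNA 2 at 13.8 CPM (differences 1.24 and 1.19, adjusted p = 6.32e-08 and 6.95e-08).

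Of 37 activin, BMP and insulin or IGF signalling genes 19 fell and 8 rose with a median of -0.28, beside 29.4% lower and 28.1% higher over all genes. With library totals 14 fell and 10 rose (median -0.16). Fst, which binds activin, fell by 1.96 ± 0.16. Of 41 mesenchymal and matrix genes, the programme Twist1 is known for in other cells, 23 had a higher level with shRNA 1 than in 25Q and 18 a lower one. That share was not counted over all genes. Among the 32 that passed the filter, 15 fell and 10 rose, with a median of -0.14, or -0.01 with library totals. Fn1, fibronectin, fell by 1.47 ± 0.11 and the chemokine Cxcl12 by 1.93 ± 0.17, while Col1a1 rose by 1.15 ± 0.24, from 0.915 ± 0.428 to 2.14 ± 0.427 CPM. Stress lists were mixed. Cytosolic chaperones had 14 of 33 higher and 11 lower (median 0.05), with Hsp90ab1 up by 0.73 ± 0.05, from 1036 ± 44.0 to 1727 ± 142 CPM, and Hspa12a down by 1.92 ± 0.06. Integrated stress and unfolded protein response genes had 11 of 38 higher and 12 lower, with a median of -0.03 that turned to 0.09 with library totals, and Atf4, the central factor of that response, fell by 0.95 ± 0.07 while the chaperone Hspa5 rose by 0.43 ± 0.04. Of 44 ribosomal protein genes 10 fell and 1 rose (median -0.10), but with library totals 4 fell and 8 rose (median 0.03). Of 9 mitochondrial-genome transcripts 1 rose and none fell (median -0.13).

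Markers of the other cell types such cultures can hold were counted as well, where 28.1% of all genes were called higher and 29.4% lower. Astrocyte markers had 10 of 21 higher and 1 lower with a median of 0.14, and their summed level was 5155 to 5507 CPM in 25Q and 5748 to 6273 CPM with shRNA 1, so that the ranges did not overlap. Aqp4, a water channel of astrocyte endfeet, rose by 0.80 ± 0.06. Oligodendrocyte lineage markers had 6 of 15 lower, with a summed level of 1281 to 1561 against 1103 to 1283 CPM and a median of -0.11 that became 0.02 with library totals. Neural progenitor markers had 4 of 18 higher and 5 lower, with sums of 1560 to 2059 and 1519 to 2028 CPM. Endothelial, mural and meningeal markers passed the filter in 9 of 22 cases, with 3 higher, 1 lower and sums of 43.2 to 61.0 and 43.5 to 57.1 CPM. Microglia and macrophage markers passed in 6 of 18, with sums of 33.2 to 41.8 and 28.0 to 36.2 CPM, and among those 6, 1 was higher and 1 lower. Over all 18, 7 had a higher level with shRNA 1 and 11 a lower one, a share that was not counted over all genes. The 12 that did not pass had 0 to 15 summed counts in 25Q and 0 to 24 with shRNA 1. Of these Tmem119 was at 0 in 25Q and Tyrobp at 0 with shRNA 1, Cx3cr1 had 5 and 7 counts, and Ptprc had the most, 15 and 24. Mpeg1 fell from 9.49 ± 2.77 to 1.33 ± 0.648 CPM in the same libraries. The part of other cell types in the neuronal lists was not tested.

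Genes were then chosen by their values in both comparisons with 25Q, which share the 25Q libraries, so their patterns are descriptions. In the first pattern the 72Q groups differed by less than 0.25 with an unadjusted p over 0.05. It holds Il13ra1, a cytokine receptor, at 2.98 with shRNA 1 and 2.80 in the control, AW551984 at 2.89 and 2.72, the prolactin receptor Prlr at 2.30 and 2.41, the adaptor Skap2 at 2.20 and 2.08, Frem3 at 2.19 and 2.10 and the potassium channel regulator Abcc9 at 2.14 and 2.24. Among lower genes it holds Hrh3 at -2.56 and -2.33, Dbpht2 at -2.34 and -2.45, the myosin Myh3 at -2.11 and -2.26, the lymphangiogenic factor Ccbe1 at -2.04 and -1.90, Sstr2 at -1.94 and -1.93 and the polysialyltransferase St8sia2 at -1.90 and -1.89.

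In the second pattern shRNA 1 moved a gene part of the way to 25Q. Beside the developmental factors above it holds the serotonin receptor Htr1a at -1.34 with shRNA 1 and -2.43 in the control, the vasopressin receptor Avpr1a at -1.12 and -2.23, the ubiquitin ligase Trim16 at -1.17 and -2.18, Ntf3 at -1.01 and -2.29 and the melanocortin receptor Mc4r at -0.97 and -2.44. Htr1a was at 22.4, 20.5, 20.4 and 18.3 CPM in 25Q and at 8.70, 6.34, 10.1 and 7.05 CPM with shRNA 1. These did not overlap, and the control mean was lower still at 3.68 CPM.

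In the third, a gene called in the control was within 0.25 of 25Q with shRNA 1. Tes (chr6:17065149-17105828), a focal adhesion protein, held 40.3, 45.1, 39.0 and 35.5 CPM in 25Q, 41.6, 41.2, 36.7 and 26.5 CPM with shRNA 1 and 9.33 ± 2.40 CPM in the control. The first 2 groups overlapped, with a log2 difference of -0.14 (adjusted p = 0.216), and shRNA 2 stood at 13.2 ± 3.30 CPM. Others were Rgs5 at -0.06 with shRNA 1 and -2.0 in the control, the prostaglandin-degrading enzyme Hpgd at 0.24 and -1.68, Tmtc4 at -0.20 and -1.51, Gucy2g at 0.11 and -1.49 and Hrc at -0.24 and -1.36. On the higher side Ccdc96 stood at -0.07 and 2.16, Ky at 0.12 and 1.28, the lysyl oxidase Loxl1 at 0.22 and 1.28, the lipid receptor S1pr5 at 0.07 and 1.28, Klhl33 at 0.11 and 1.18 and Zfp335os at 0.16 and 1.18. Ccdc96 was at 3.64 ± 0.192 CPM in 25Q, 3.50 ± 0.983 CPM with shRNA 1, 16.9 ± 4.76 CPM in the control and 13.1 ± 2.05 CPM with shRNA 2.

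**Figure D5:**
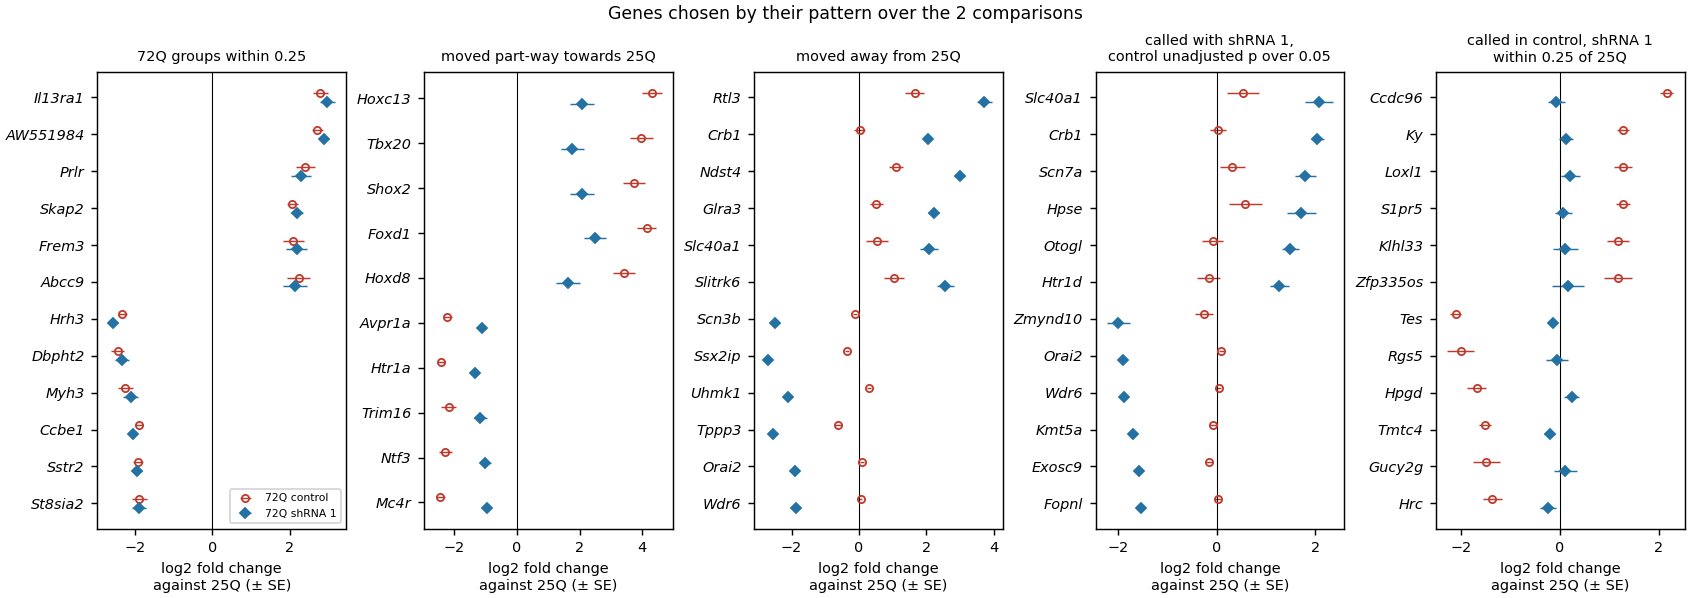
Log2 fold change against 25Q (x axis, ± SE) of the genes of each pattern, with circles for 72Q with control shRNA and diamonds for 72Q with shRNA 1. From left to right the diamonds lie on the circles, nearer to 0 than the circles, farther from 0, far from 0 where the circles are near 0, and near 0 where the circles are not.

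The last patterns hold genes that differed from 25Q with shRNA 1 and had moved away from it relative to the 72Q control. Ssx2ip (chr3:146404642-146440139) was at 119, 119, 118 and 116 CPM in 25Q and at 19.9, 14.0, 20.1 and 18.4 CPM with shRNA 1. The control was at 92.1 ± 6.49 CPM and shRNA 2 at 104 ± 8.92 CPM, so the shRNA 1 libraries stood apart from all other libraries. The change against 25Q was -2.71 ± 0.06 (adjusted p = 4.25e-24) and that against shRNA 2 was -2.53 (adjusted p = 3.11e-23). Scn3b (chr9:40269216-40291618), a sodium channel beta subunit, held 337, 308, 342 and 345 CPM in 25Q and 55.7, 53.9, 60.4 and 69.4 CPM with shRNA 1. It was at 307 ± 13.1 CPM in the control and 254 ± 22.7 CPM with shRNA 2, again with shRNA 1 alone in the low range.

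The same was seen for Uhmk1, a kinase that binds RNA-processing proteins, which went from 279 ± 35.4 to 65.5 ± 14.7 CPM with shRNA 1 and was at 344 ± 28.5 CPM in the control and 288 ± 41.8 CPM with shRNA 2. Wdr6 went from 359 ± 20.6 to 98.1 ± 7.80 CPM, beside 372 ± 19.2 and 377 ± 23.6 CPM in those groups, and the calcium entry channel Orai2 from 60.6 ± 0.957 to 16.2 ± 1.65 CPM, beside 64.8 ± 5.12 and 53 ± 5.50 CPM. The histone H4 methyltransferase Kmt5a (-1.70 ± 0.07), the exosome subunit Exosc9 (-1.57 ± 0.09), the centriolar gene Fopnl (-1.54 ± 0.08) and Zmynd10 (-1.99 ± 0.23) were lower than 25Q with shRNA 1 and had an unadjusted p over 0.05 in the control. Zmat3, an RNA-binding p53 target, was at 139 ± 15.7 CPM in 25Q, 47.3 ± 4.09 CPM with shRNA 1, 153 CPM in the control and 136 CPM with shRNA 2, a difference between the Twist1 shRNAs of -1.52 (adjusted p = 4.90e-21). Tppp3 was graded over the groups, at 76.5 ± 11.8 CPM in 25Q, 49.9 CPM in the control, 26.7 ± 2.86 CPM with shRNA 2 and 13.0 CPM with shRNA 1.

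The higher genes of this pattern had fewer reads. Crb1, a polarity gene, rose by 2.04 ± 0.13, from 2.61 ± 0.316 to 11.1 ± 1.58 CPM, with 2.65 ± 0.650 CPM in the control and 1.91 ± 0.167 CPM with shRNA 2. Rtl3 was at 5.75 ± 1.5 CPM against 1.29 ± 0.542 and 1.84 ± 0.685 CPM in those groups, and Ndst4 at 10.7 ± 3.41 against 2.77 ± 0.597 and 3.28 ± 1.12 CPM. Slc40a1, the iron exporter, rose by 2.08 ± 0.28, Slitrk6 by 2.56 ± 0.25, the sodium channel Scn7a by 1.80 ± 0.22, Otogl by 1.5 ± 0.17 and the serotonin receptor Htr1d by 1.28 ± 0.20, each above shRNA 2 (adjusted p between 2.77e-08 and 0.00132). The heparanase Hpse rose by 1.72 ± 0.30 in overlapping groups, and its difference between the Twist1 shRNAs did not pass the test (adjusted p = 0.287). The sequences of the shRNAs were not used here, and a match of shRNA 1 to these transcripts was not tested.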

How the data were processed

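Per the submitters' processing notes, the reads went through STAR 2.0.4b and featureCounts 1.45 (Subread) on GRCm38. Strandedness, annotation release and multi-mapping reads have no stated setting in those notes, the labels or the file headers. Overlapping genes and close paralogs are therefore uncertain. The authors deposited raw read counts for 41388 genes per library, which were the input of every test. The deposited CPM equalled count over library total (largest difference 2.5e-11) and the deposited RPKM that CPM per kilobase (3.8e-11), and neither entered a test. Symbols came from GENCODE M21 for 40340 identifiers. Groups came from the titles and experiments from the descriptions.

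In edgeR 4.0.16 under R 4.3.3, filterByExpr left 15103 genes. The robust quasi-likelihood test with TMM scaling used the 16 libraries together, a model of group plus experiment, a prior count of 2 and Benjamini-Hochberg adjustment at 0.05. The procedure was also run on simulated counts with the same spread for all genes and no difference between experiments. That setting is simpler than these libraries, so it cannot vouch for the calls. The common biological coefficient of variation was 5.24%. Samples were paired by the experiment label. Deviations of the paired 25Q and shRNA 1 libraries from their group means correlated across genes at 0.385 to 0.643. Libraries of other experiments had -0.463 to -0.0286, apart from exp109a with exp109b (0.345 and 0.497). Deviations cancel out within a group, which pulls the values between experiments down. The 25Q exp109b library was closer to shRNA 1 exp109a (0.497) than to its own partner (0.385), so the pairing within exp109 is uncertain. Title numbers followed the experiment in 1 of 4 cases. Between replicates of a group, chi-square over its degrees of freedom ranged from 2.85 to 20.0, where sampling noise alone gives about 1. The lowest values were those of exp109a with exp109b, 2.85 in 25Q and 4.81 with shRNA 1, and all other pairs had at least 7.10.

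Named genes were the 12 highest and 12 lowest called, and 6 and 6 of each pattern. These had a mean of at least 1 CPM and the same sign in all 4 experiments in the comparison each was ranked on. Predicted genes and pseudogenes were left out. Up to 2 highest and 2 lowest called members of each list were named without those limits, besides Twist1 and Htt. Genes said to be named after their values were seen are exceptions. Comparisons, lists and rules were chosen with earlier results of these data known. Alternatives were DESeq2 1.42.0, other scalings, other filters, no block or another block, the 8 libraries alone and leaving out each library. Some genes that the rule names are not reported here.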

Additional observations from a re-analysis of the deposited data

Results flagged for a closer look

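In groups of 4 libraries, a sample that stood apart from the other 3 by Dixon's criterion at the 95% level was found in 9 of 150 groups tested, where chance flags about 1 in 20. Among 25Q libraries, exp108 held 7.82 CPM of AW551984 and 43.3 CPM of Has3, and exp107 held 7.41 CPM of Myh3. For Hoxc13 (0.174 CPM in exp107), Hoxd8 (0.0635 CPM in exp109b) and Tbx3 (0.0635 CPM in exp109b) the other 25Q libraries had no count. Among shRNA 1 libraries, exp107 held 6.17 CPM of Avpr1a, exp108 14.6 CPM of Coro2a and exp109b 4.37 CPM of Ebf3.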

How the results depend on the processing

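The 8671 calls between shRNA 1 and 25Q became 8056 with DESeq2, 9031 with upper-quartile scaling, 9350 with library totals, 8567 without the filter, 8485 with at least 1 CPM in 4 libraries, 8369 with the 8 libraries alone and 7997 to 8321 on leaving out each library. Without the replicate block there were 6499, and with title numbers as the block 7221. With exp109a and exp109b summed to 1 library per group, an alternative chosen after seeing the data, there were 8374 (4078 higher, 4296 lower), and 177 of 180 results for single genes kept direction and side of the threshold, Ccnd2 and Htt losing their calls. Between shRNA 1 and the 72Q control, 6999 calls became 4561 without the replicate block. Of 180 results for single genes, 170 kept direction and side of the threshold without the block and 178 with DESeq2. Htt turned from -0.12 to 0.004 (adjusted p = 0.958) with library totals, and its call was lost in most other alternatives. Genes with few counts, such as Hoxd8 and Tbx3, are limited by depth.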
